A study of Zea mays with 24 samples.

Results

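The genes described here were 6 maize phytochrome genes and 2 genes listed as PIF (phytochrome-interacting factor) genes, in seedlings of 3 lines kept as control or exposed to heat. They were phyA1 (GRMZM2G157727), phyA2 (GRMZM2G181028), phyB1 (GRMZM2G124532), phyB2 (GRMZM2G092174), phyC1 (GRMZM2G057935) and phyC2 (GRMZM2G129889), with the PIF genes GRMZM2G387528 and GRMZM2G115960. The members came from a list of gene IDs, matched to the transcript name of each spot without its transcript number, and 8 of the 107027 gene IDs on the array belonged to it. RefSeq (assembly Zm-B73-REFERENCE-NAM-5.0) listed 6 of the 8 IDs, and 5 of them were paired with 1 RefSeq gene. It carried the names phyA2, PhyB1 and PhyB2 for the genes so called here. The ID of phyC2 was attached to 2 RefSeq genes, PHYC and Spo11-1, so the array does not settle which of these its probe reads. The IDs of phyA1 and phyC1 were not matched, and both PIF genes matched entries without a gene name, so these 4 names rest on the list alone.

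Phytochromes are receptors for red and far-red light, made of a protein and a bilin chromophore, that switch between an inactive and an active form. The active form moves to the nucleus and binds the PIFs, basic helix-loop-helix transcription factors that promote elongation and dark growth, and this binding leads to their breakdown. In Arabidopsis, phyA acts in far-red light and in seedlings leaving darkness, phyB acts in red light, shade avoidance and temperature sensing, and phyC works with phyB. Maize carries a pair of genes for each of the PHYA, PHYB and PHYC types.

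Total RNA of seedlings with 3 leaves was hybridized to 24 one-colour Agilent arrays, 4 in each of 6 groups. All 3 lines shared the nucleus of the inbred line TC243. TC243 itself kept its own cytoplasm, cytTC221 held the TC243 nucleus in the cytoplasm of the inbred TC221, and cytTC248, which the study's text writes as cytT248, held it in that of T248. The nucleus had been brought in by repeated crosses with TC243 as pollen parent, which can leave a small remainder of the other nuclear genome. Control seedlings grew for 21 days at 26 °C in the light (16 h) and 20 °C in the dark (8 h), and in the heat groups the last 24 h were spent at 40 °C under the same light regime. Leaves and stems of 3 seedlings per line were collected according to the methods, and how the 4 replicates relate to those seedlings was not given, so the p-values measure the spread between these samples, which may be technical.

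Values are log2 signals relative to the 75th percentile of the same array, so 0 is the level of that percentile and -1 is a signal lower by a factor of 2. Between 36.9% and 43.1% of the spots of an array were well above background, and no spot was saturated. The heat labels were checked with the heat shock genes hsp26 and hsp101, whose lowest heat value (4.77 and 2.15) lay above their highest control value (-4.23 and -4.37). Leaf markers were bright in control, with pep1, the mesophyll PEP carboxylase, at a mean of 5.39 in TC243, 4.96 in cytTC221 and 5.05 in cytTC248. In heat pep1 stood at -1.01, -1.78 and -1.12. Of the other leaf markers, pdk1 and ssu2 were lower in heat in all 3 lines, me3 was higher in all 3 and ssu1 passed the test, upward, in cytTC221, while the meristem marker kn1 had no probe above background throughout a group. The fall of pdk1 was largest in its T02 probe (-2.63, -2.15 and -2.73), and in cytTC248 no other probe of pdk1 was called. These markers were measured in the same RNA as the phytochrome genes, and their part in the results was not tested. In RNA of such mixed tissue, fewer cells of a type and less RNA per cell cannot be told apart.

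The 8 genes had 14 probes, of which 12 were kept because some group had them well above background on each of its arrays. phyB1 and GRMZM2G115960 had 3 kept probes each, aimed at different transcripts, and the other 6 genes had 1. The probe names also carried a label, Sp or Xhy, whose meaning was not given. Sp marked the kept probes of both phyA genes and the T01 probe of GRMZM2G115960. Xhy marked all other kept probes of the members. A second probe of phyA1 and one of GRMZM2G387528 were not well above background on any array. Differences are given as log2 values and as fold regulation (FR), the linear ratio, negative where the signal decreased, and a gene was called at an adjusted p below 0.01 in limma over all 48263 genes. The members of a gene pair are close paralogs, and whether a probe also binds the partner's transcript was not tested.

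In the probes that read them, the phytochrome types moved in opposite directions in heat. The phyA genes were read by Sp probes and the other phytochromes by Xhy probes. Type and probe label therefore cannot be told apart among them, and the part of the label was not tested. Sp probes of other genes fell, as in PIF5 and phot1 below. The phyA pair was up-regulated in all 3 lines, by an FR of 1.74 to 2.98, while phyB2, phyC1, phyC2 and both PIF genes were down-regulated in all 3, by an FR of -1.70 to -4.39. phyB1 did not pass the test in any line as the mean of its 3 probes, although 2 of these probes passed in cytTC221. The strongest decrease of a single member probe was that of GRMZM2G115960 T02 in cytTC221, with an FR of -9.68. In each line 2 members rose and 5 fell. Against this stood 47.4% of all genes higher and 30.2% lower in TC243, 40.6% and 32.3% in cytTC221, and 54.8% and 26.1% in cytTC248. In all 3 lines at the same time, 36.5% of all genes rose and 23% fell. Control and heat values did not overlap for 8 members in TC243, 7 in cytTC221 and 8 in cytTC248, and for 77.3%, 72.9% and 82.8% of all genes, so a gap between the groups was common on these arrays.

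**Figure D1:**
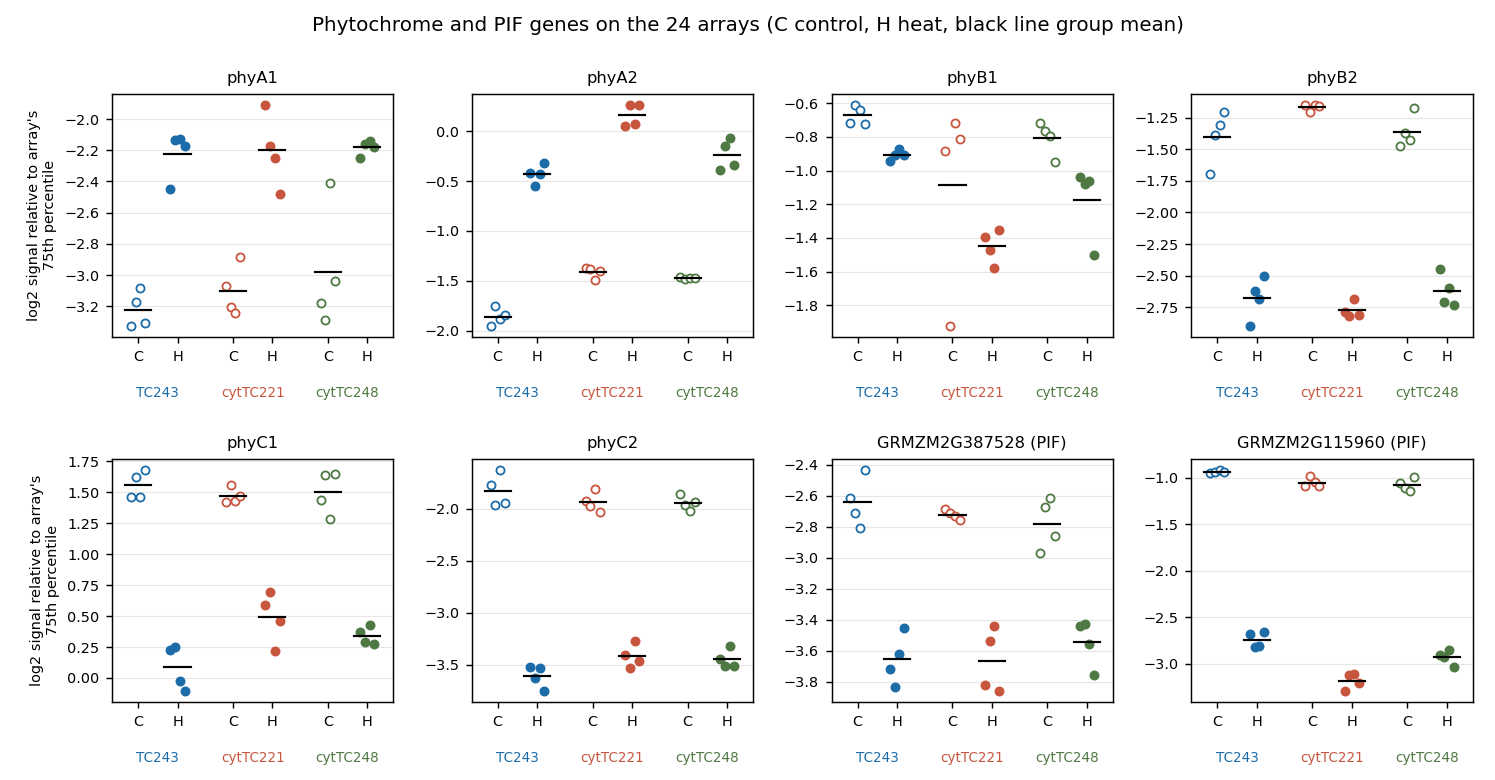
Log2 signal relative to the array's 75th percentile for the 8 genes on each of the 24 arrays, with open circles for control (C), filled circles for heat (H), a colour per line and a black line at the group mean. Both phyA genes lie higher in heat and phyB2, phyC1, phyC2 and the PIF genes lower in every line, and the low control point of phyB1 in cytTC221 is the value of -1.92.

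The whole distribution of genes also shifted, with a median heat difference of 0.27 in TC243, 0.12 in cytTC221 and 0.48 in cytTC248, against -1.15, -0.96 and -0.96 over the 8 members. Set against the median gene, phyA1 stood 0.73, 0.77 and 0.31 higher in the 3 lines and phyA2 1.16, 1.45 and 0.75 higher. On that scale phyB2 was lower by a log2 value of -1.55, -1.73 and -1.74, phyC2 by -2.05, -1.61 and -1.98, and GRMZM2G115960 by -2.08, -2.26 and -2.34. Of all genes, 60.6% responded less than phyA1 in cytTC248 and 88.9% less than phyA2 in cytTC221, while only 4.81% had a lower response than GRMZM2G115960 in cytTC221. With arrays centred on the median gene, every call of a rise or fall named above was kept except that of phyA1 in cytTC248, which dropped to 0.37 (adjusted p = 0.0185).

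**Figure D2:**
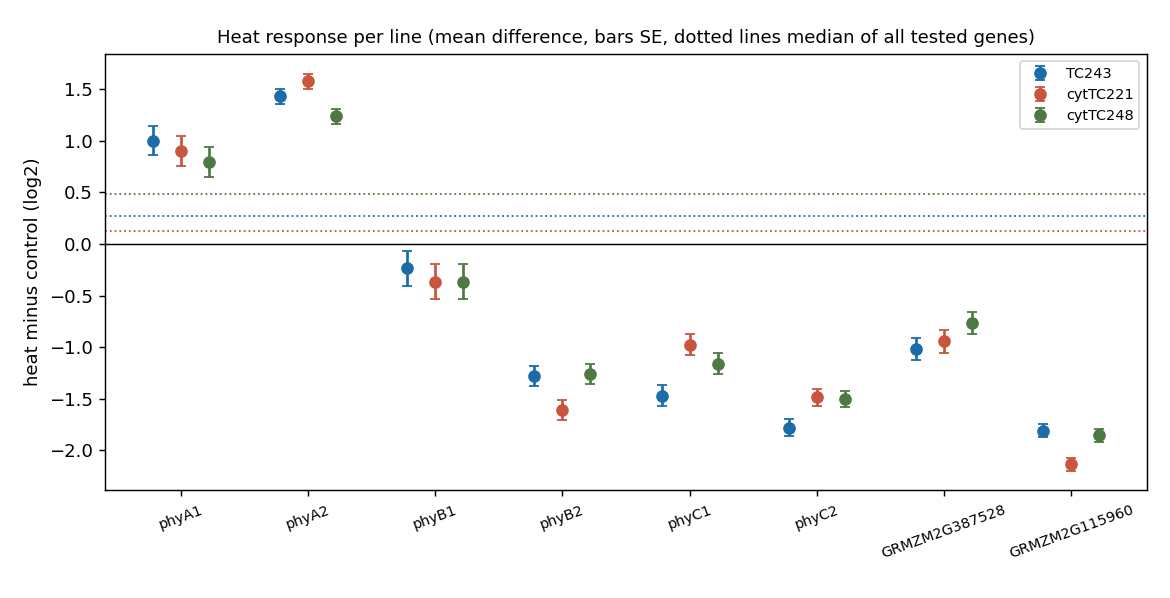
Heat minus control difference on the log2 scale for the 8 genes in each line, with bars of 1 standard error from the limma fit of 4 arrays per group and dotted lines at the median of all 48263 genes in each line. The phyA genes lie above all dotted lines at 0.80 to 1.57, phyB1 lies between -0.24 and -0.37, and the other genes lie between -0.76 and -2.13.

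phyA1 and phyA2 are listed as genes of the far-red receptors. The phyA2 probe gave -1.95, -1.75, -1.88 and -1.85 in TC243 control (replicates 1 to 4) and -0.42, -0.55, -0.43 and -0.32 in TC243 heat. In cytTC221 its control values were -1.38, -1.38, -1.49 and -1.40 and its heat values 0.05, 0.27, 0.07 and 0.26. For cytTC248 the values were -1.47, -1.48, -1.47 and -1.47 in control and -0.39, -0.15, -0.07 and -0.34 in heat. All heat arrays of a line lay above all of its control arrays, and the 4 TC243 control arrays lay below every other array of the series. phyA2 rose in heat by 1.43 in TC243 (FR 2.69, adjusted p = 1.69e-14), by 1.57 in cytTC221 (FR 2.98, adjusted p = 3.1e-15) and by 1.23 in cytTC248 (FR 2.35, adjusted p = 2.89e-13), each with a standard error of 0.08. Within the slides that held both treatments of a line, the differences were 1.53 and 1.56 in TC243, 1.65 and 1.56 in cytTC221, and 1.09 and 1.13 in cytTC248.

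phyA2 was also the member whose level differed between lines before any heat. The group means ran from -1.86 ± 0.08 (SD, n = 4) in TC243 control, over -1.47 ± 0.00 in cytTC248 control and -1.41 ± 0.05 in cytTC221 control, to -0.43 ± 0.09 in TC243 heat, -0.24 ± 0.15 in cytTC248 heat and 0.16 ± 0.12 in cytTC221 heat. In control, cytTC221 exceeded TC243 by 0.45 (FR 1.36, adjusted p = 1.22e-04) and cytTC248 exceeded TC243 by 0.39 (FR 1.31, adjusted p = 7.58e-04). phyA2 was the only member called in these comparisons, 1 of 8 in each, where 10.2% and 9.38% of all genes were called. Between the 2 cytolines in control no member was called, against 9.1% of all genes. In heat, cytTC221 was above TC243 by 0.59 (FR 1.51, adjusted p = 5.46e-07) and above cytTC248 by 0.40 (FR 1.32, adjusted p = 1.27e-04), while cytTC248 and TC243 as neighbours in that order differed by 0.19 (adjusted p = 0.0687).

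Slides that held both lines gave a phyA2 difference of the same sign each time. In control it was 0.58 and 0.48 for cytTC221 over TC243 and 0.49, 0.28, 0.41 and 0.38 for cytTC248 over TC243. In heat it was 0.81 and 0.50 for cytTC221 over TC243 and ranged from 0.14 to 0.61 for cytTC221 over cytTC248. For cytTC248 over TC243 in heat it was 0.40 and 0.36, larger than the 0.19 over all arrays. The rise itself did not differ by the test between cytTC221 and TC243, with a difference of 0.14 and a 99% interval of -0.15 to 0.44 (adjusted p = 0.302). Between cytTC221 and cytTC248 the rise differed by 0.34 (adjusted p = 0.0114), which passed the threshold with quantile normalization (0.35, adjusted p = 0.00551) and with median-centred arrays (0.69).

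phyA1 was read by 1 probe, in the lower part of the signal range. It gave -3.33, -3.17, -3.08 and -3.31 in TC243 control against -2.45, -2.14, -2.13 and -2.18 in TC243 heat. In cytTC221 control it was at -3.07, -3.21, -3.24 and -2.88, and in cytTC221 heat at -1.91, -2.17, -2.25 and -2.48. The cytTC248 control arrays read -3.18, -3.29, -2.41 and -3.04 and the heat arrays -2.25, -2.16, -2.14 and -2.18. Heat and control values did not overlap in any line, and replicate 3 of cytTC248 control came closest to its heat group. The rise was 1.00 in TC243 (FR 2.00, adjusted p = 9.23e-07), 0.90 in cytTC221 (FR 1.87, adjusted p = 4.92e-06) and 0.80 in cytTC248 (FR 1.74, adjusted p = 2.07e-05), with a standard error of 0.14. No difference between lines in this gene passed the test, in control, in heat or in the response, whose F-test gave an adjusted p of 0.646.

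phyB1 and phyB2 encode red light receptors, and only phyB2 was called as a gene. The phyB2 probe read -1.70, -1.38, -1.31 and -1.20 in TC243 control and -2.90, -2.62, -2.69 and -2.50 in TC243 heat. In cytTC221 it read -1.15, -1.21, -1.15 and -1.16 in control and -2.79, -2.82, -2.69 and -2.81 in heat. The cytTC248 arrays gave -1.47, -1.37, -1.43 and -1.17 in control and -2.45, -2.71, -2.59 and -2.73 in heat. Every heat array was below every control array of the series. phyB2 fell by 1.28 in TC243 (FR -2.43, adjusted p = 1.95e-11), by 1.61 in cytTC221 (FR -3.05, adjusted p = 2.94e-13) and by 1.26 in cytTC248 (FR -2.40, adjusted p = 2.43e-11), with a standard error of 0.10. The larger fall in cytTC221 did not pass the test of the difference against TC243 (-0.33, adjusted p = 0.0575) or cytTC248 (-0.35, adjusted p = 0.0399).

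The mean of the phyB1 probes rested on 1 probe that read far from its group on a pair of arrays. As a mean, phyB1 was at -0.72, -0.61, -0.64 and -0.72 in TC243 control and at -0.94, -0.91, -0.87 and -0.91 in TC243 heat. It was at -0.88, -1.92, -0.72 and -0.81 in cytTC221 control and at -1.39, -1.47, -1.58 and -1.35 in cytTC221 heat. In cytTC248 the control values were -0.72, -0.77, -0.79 and -0.95 and the heat values -1.04, -1.08, -1.06 and -1.50. Control replicate 2 of cytTC221 was below all 4 heat arrays of its line, the only overlap among the 8 genes. The heat difference was -0.24 in TC243 (99% interval -0.71 to 0.24, adjusted p = 0.194), -0.37 in cytTC221 (-0.84 to 0.11, adjusted p = 0.0506) and -0.37 in cytTC248 (-0.84 to 0.11, adjusted p = 0.0463), with a standard error of 0.17.

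The low value came from the probe to transcript T01. Its median signal before correction was 107.5 in cytTC221 control replicate 2, against 1012.5, 1174 and 897 in the other 3 replicates, and 259 in cytTC248 heat replicate 4, against 582, 595.5 and 541. Neither spot was marked as an outlier by the scanner software. After correction these spots stood at -4.39 and -2.50, where the other replicates of their groups lay from -1.09 to -0.79 and from -1.20 to -1.10. The T01 probe alone gave heat differences of -0.29, 0.33 and -0.64 with a standard error of 0.48, and none was called.

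The other 2 phyB1 probes had a standard error of 0.08 and were called in cytTC221. The T02 probe was at -0.64, -0.67, -0.69 and -0.75 in TC243 control and -0.95, -0.87, -0.88 and -0.84 in TC243 heat. In cytTC221 it was at -0.90, -0.77, -0.74 and -0.67 in control and -1.44, -1.53, -1.85 and -1.32 in heat. In cytTC248 it was at -0.76, -0.75, -0.78 and -0.79 in control and -1.05, -1.10, -1.09 and -0.99 in heat. The heat arrays of cytTC221 were below all other arrays in this probe, and control and heat did not overlap in any line. Its heat difference was -0.20 in TC243 (adjusted p over 64522 probes = 0.0303), -0.77 in cytTC221 (adjusted p = 7.98e-09) and -0.29 in cytTC248 (adjusted p = 0.00236). The cytTC248 call was lost with slide as a block (-0.26, adjusted p = 0.0111) and with the processed signal (-0.23, adjusted p = 0.0787).

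In the T03 probe the fall was again largest in cytTC221. It read -0.56, -0.51, -0.49 and -0.75 in TC243 control and -0.85, -0.81, -0.77 and -0.79 in TC243 heat. The cytTC221 values were -0.66, -0.61, -0.63 and -0.78 in control and -1.34, -1.28, -1.37 and -1.33 in heat, and the cytTC248 values were -0.64, -0.76, -0.73 and -1.12 in control and -0.87, -1.04, -0.99 and -1.03 in heat. The 4 heat arrays of cytTC221 again lay below the other 20 arrays, and in cytTC248 control replicate 4 lay below its heat group. The heat difference was -0.23 in TC243 (adjusted p = 0.0166), -0.66 in cytTC221 (adjusted p = 1.58e-07) and -0.17 in cytTC248 (adjusted p = 0.0649). Of the members' 12 kept probes, 9 fell and 2 rose in cytTC221, where 34.4% and 39.4% of all probes did. The counts were 6 and 3 in TC243 (32.9% and 44.7% of all probes) and 7 and 2 in cytTC248 (29.3% and 51.1%). Within slides, cytTC221 gave -0.76 and -1.11 in T02 and -0.67 and -0.73 in T03.

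Compared between lines in heat, cytTC221 was below TC243 by -0.65 in the T02 probe (adjusted p = 4.44e-07) and by -0.52 in the T03 probe (adjusted p = 1.44e-05), with differences within slides of -0.66 and -0.97, and of -0.47 and -0.60. The response itself was lower in cytTC221 than in TC243 by -0.57 in T02 (adjusted p = 3.79e-04) and by -0.43 in T03 (adjusted p = 0.00572), and lower than in cytTC248 by -0.48 (adjusted p = 0.00196) and -0.49 (adjusted p = 0.00204). These response differences passed the threshold with the scaling used here and not when the percentile was that of all spots, where they were -0.42 (adjusted p = 0.0113) and -0.29 (adjusted p = 0.0638) against TC243 and -0.18 (adjusted p = 0.271) and -0.20 (adjusted p = 0.208) against cytTC248. With arrays centred on the median gene they were lost as well. They were then -0.34 (adjusted p = 0.0278) and -0.21 (adjusted p = 0.165) against TC243. Against cytTC248 they were -0.13 (adjusted p = 0.44) and -0.14 (adjusted p = 0.375). Over the 12 kept probes of the members, 3 were lower and 1 was higher in the response of cytTC221 than in that of TC243, where 16.8% and 10.1% of all probes were called, and 3 were lower than in cytTC248, where 23.5% of all probes were. The third of these probes was the T01 probe of GRMZM2G115960, which was at background in cytTC221 heat. The T03 response call against TC243 was also lost with slide as a block (-0.36, adjusted p = 0.033), without the filter on dim probes (adjusted p = 0.0209) and when any of 7 of the 24 arrays was left out. The median of the 3 probes in place of their mean, chosen after the stray spots were seen, gave falls of -0.20 in TC243 (adjusted p = 0.00508), -0.65 in cytTC221 (adjusted p = 1.54e-09) and -0.26 in cytTC248 (adjusted p = 4.36e-04).

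**Figure D3:**
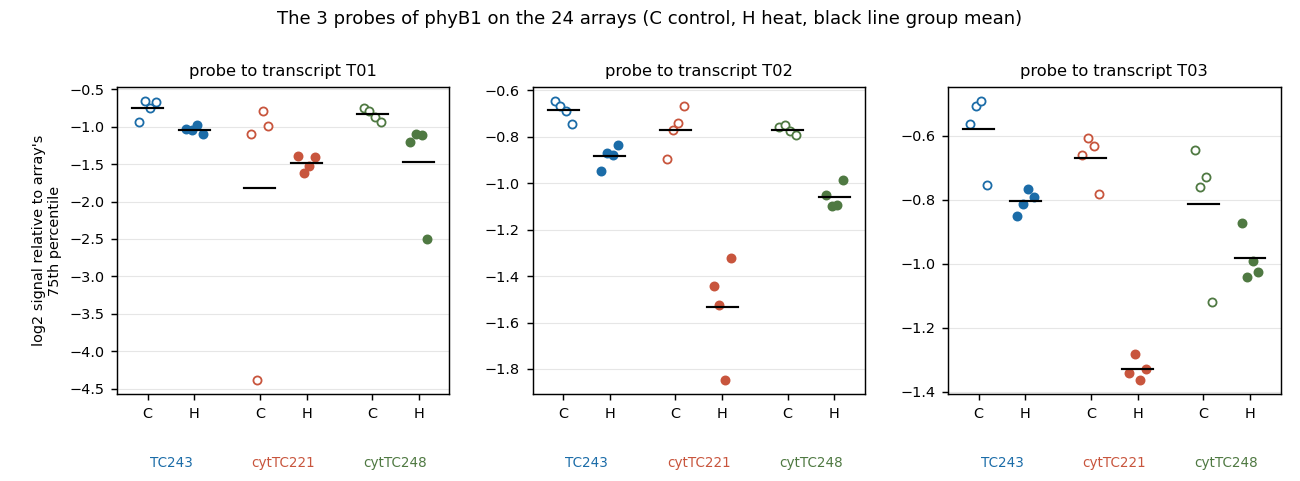
Log2 signal relative to the array's 75th percentile for the 3 probes of phyB1 on each of the 24 arrays, with open circles for control (C), filled circles for heat (H) and a black line at the group mean. In the T01 probe 1 spot lies at -4.39 and another at -2.50, and in the T02 and T03 probes the heat arrays of cytTC221 lie lowest.

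The phyC proteins pair with phyB in Arabidopsis, and both genes listed as phyC fell here. phyC1 was at 1.47, 1.62, 1.46 and 1.68 in TC243 control and at 0.23, 0.25, -0.02 and -0.10 in TC243 heat. In cytTC221 it was at 1.42, 1.56, 1.43 and 1.47 in control and at 0.59, 0.70, 0.22 and 0.46 in heat. In cytTC248 it was at 1.44, 1.64, 1.28 and 1.64 in control and at 0.37, 0.29, 0.43 and 0.27 in heat. All 12 control arrays lay above all 12 heat arrays, and among the heat arrays 3 of cytTC221 were the highest. The change was -1.47 in TC243 (FR -2.77, adjusted p = 3.5e-12), -0.98 in cytTC221 (FR -1.97, adjusted p = 6.54e-09) and -1.16 in cytTC248 (FR -2.24, adjusted p = 2.65e-10), each with a standard error of 0.10.

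The response of phyC1 was smaller in cytTC221 than in TC243, by a difference of 0.49 (standard error 0.14, 99% interval 0.09 to 0.90, adjusted p = 0.00853). The lines did not differ by the test in control (-0.09, adjusted p = 0.675), and in heat cytTC221 was higher by 0.40 (adjusted p = 0.00189), with 0.44 and 0.24 within the slides holding both lines. This response call was lost when any of 13 of the 24 arrays was left out (adjusted p 0.0101 to 0.0227) and with slide as a block in the fit (0.37, adjusted p = 0.0442). The response of cytTC248 minus that of TC243 was 0.31 (adjusted p = 0.12).

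phyC2 fell in every line as well. Its values were -1.77, -1.96, -1.62 and -1.94 in TC243 control and -3.52, -3.63, -3.53 and -3.75 in TC243 heat. They were -1.92, -1.97, -1.81 and -2.03 in cytTC221 control and -3.41, -3.53, -3.27 and -3.46 in cytTC221 heat. In cytTC248 they were -1.86, -1.96, -2.02 and -1.93 in control and -3.44, -3.51, -3.32 and -3.51 in heat. The spread within a group was small beside the gap, and the 3 lines overlapped in control. phyC2 changed by -1.78 in TC243 (FR -3.44, adjusted p = 1.24e-15), -1.48 in cytTC221 (FR -2.80, adjusted p = 5.01e-14) and -1.50 in cytTC248 (FR -2.83, adjusted p = 3.43e-14). The response difference between cytTC221 and TC243 was 0.30 (adjusted p = 0.0429), and it was called with quantile normalization (0.49), with the percentile of all spots (0.45) and with median-centred arrays (0.52).

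The 2 PIF genes are listed under the name of transcription factors that active phytochromes bind. GRMZM2G115960 as the mean of its probes was at -0.95, -0.94, -0.91 and -0.94 in TC243 control and at -2.69, -2.82, -2.81 and -2.66 in TC243 heat. It was at -1.09, -0.98, -1.04 and -1.09 in cytTC221 control and at -3.29, -3.13, -3.12 and -3.21 in cytTC221 heat, and at -1.06, -1.11, -1.14 and -0.99 in cytTC248 control and -2.91, -2.93, -2.85 and -3.03 in cytTC248 heat. The control arrays of all lines lay within a narrow band, and in heat the 4 cytTC221 arrays were the lowest of the series. The changes were -1.81 in TC243 (FR -3.50, adjusted p = 3.15e-18), -2.13 in cytTC221 (FR -4.39, adjusted p = 1.64e-19) and -1.86 in cytTC248 (FR -3.62, adjusted p = 2.05e-18), with a standard error of 0.06.

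The mean covered probes that did not move alike. The T02 probe of GRMZM2G115960 read 1.06, 1.03, 1.05 and 0.98 in TC243 control and -2.07, -2.28, -2.16 and -2.35 in TC243 heat, a change of -3.25 (FR -9.49, adjusted p = 1.01e-20). Its change was -3.27 in cytTC221 (FR -9.68, adjusted p = 1.02e-20) and -3.09 in cytTC248 (FR -8.52, adjusted p = 2.74e-20). The T03 probe changed by -2.56, -2.83 and -2.65 (FR -5.88, -7.11 and -6.28). Both probes fell in every line, and their control arrays all lay far above their heat arrays.

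The dim T01 probe of GRMZM2G115960 behaved otherwise. It read -3.99, -3.99, -3.94 and -3.96 in TC243 control and -3.62, -3.66, -3.70 and -3.40 in TC243 heat, a rise of 0.38 (adjusted p = 1.22e-04). In cytTC221 it read -4.07, -4.01, -4.06 and -4.05 in control and -4.39, -4.29, -4.16 and -4.53 in heat, where it was not well above background on any of the 4 arrays, so that it was at least 1.23-fold lower there (adjusted p = 0.00144). In cytTC248 it changed by 0.18 (adjusted p = 0.0416) and was well above background on 1 of the 4 heat arrays. The probe thus rose in TC243 and fell in cytTC221, near the limit of detection.

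For the mean of the probes, the response of GRMZM2G115960 was lower in cytTC221 than in TC243 by -0.33 (standard error 0.09, adjusted p = 0.004). Neither of the brighter probes passed on its own, with -0.03 in T02 (adjusted p = 0.881) and -0.27 in T03 (adjusted p = 0.0675), and T01, at background in cytTC221 heat, has no measured value there. The call of the mean was lost in 8 of 11 other settings, among them quantile normalization (-0.24, adjusted p = 0.0102), the median of the probes (-0.24, adjusted p = 0.0782), the brightest probe (-0.03, adjusted p = 0.879) and only probes well above background on all arrays (-0.15, adjusted p = 0.155). It was also lost without cytTC221 control replicate 2 (-0.30, adjusted p = 0.0111) or cytTC221 heat replicate 1 (-0.29, adjusted p = 0.0112), and it was kept with a larger difference from the processed signal (adjusted p = 4.03e-07). In heat, the mean was lower in cytTC221 than in TC243 by -0.44 (adjusted p = 1.7e-06), with -0.31 on each of the slides that held both, and by -0.14 in T02 (adjusted p = 0.178) and -0.44 in T03 (adjusted p = 8.68e-05).

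**Figure D4:**
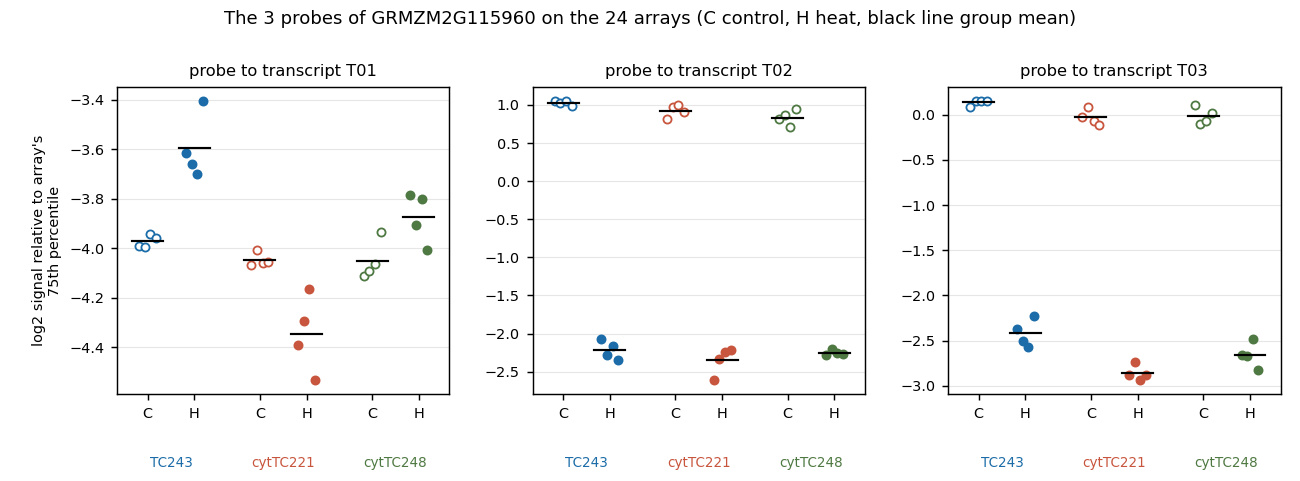
Log2 signal relative to the array's 75th percentile for the 3 probes of the PIF gene GRMZM2G115960 on each of the 24 arrays, with open circles for control (C), filled circles for heat (H) and a black line at the group mean. The T02 and T03 probes change by -2.56 to -3.27 on the log2 scale, while the T01 probe, at -3.40 or below on every array, rises by 0.38 in TC243 and is lower in cytTC221 heat.

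GRMZM2G387528, the other PIF gene, had a low signal throughout. The values were -2.62, -2.71, -2.81 and -2.43 in TC243 control and -3.72, -3.83, -3.62 and -3.45 in TC243 heat. In cytTC221 they were -2.69, -2.71, -2.73 and -2.75 in control and -3.82, -3.53, -3.44 and -3.86 in heat. In cytTC248 they were -2.97, -2.67, -2.61 and -2.86 in control and -3.44, -3.42, -3.56 and -3.76 in heat. All heat arrays lay below all control arrays of the series. The gene fell by 1.02 in TC243 (FR -2.02, adjusted p = 8.46e-09), by 0.94 in cytTC221 (FR -1.92, adjusted p = 3.34e-08) and by 0.76 in cytTC248 (FR -1.70, adjusted p = 7.45e-07), with a standard error of 0.11. Without the filter on dim probes, which adds its undetected second probe, the change shrank to -0.38 in TC243 (adjusted p = 0.00443), -0.33 in cytTC221 (adjusted p = 0.013) and -0.07 in cytTC248 (adjusted p = 0.542).

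Over all members, the heat response differed between cytTC221 and TC243 in 2 of 8, phyC1 and GRMZM2G115960, where 29.8% of all genes were called. Between cytTC248 and TC243 no member was called, against 11.1% of all genes, and between cytTC221 and cytTC248 none, against 34.8%. The F-test over the 3 lines called 1 member, GRMZM2G115960 (adjusted p = 0.00523), where 42.7% of all genes passed. Of the 11 other settings with all arrays, only the processed signal kept this F-test call. In heat, 4 members differed between cytTC221 and TC243, with phyA2 and phyC1 higher and phyB1 (-0.54, adjusted p = 0.00912) and GRMZM2G115960 lower, against 42.7% of all genes. The phyB1 call was lost when any of 19 of the 24 arrays was left out (adjusted p up to 0.0271) and in 6 of 10 other settings. Between cytTC221 and cytTC248 in heat, phyA2 and GRMZM2G115960 (-0.26, adjusted p = 0.00124) were called, 2 of 8 against 42.4%. The GRMZM2G115960 call was lost in 6 of 10 other settings, among them quantile normalization (-0.08, adjusted p = 0.202) and median-centred arrays (-0.03, adjusted p = 0.744). Between cytTC248 and TC243 in heat no member was called, against 11.7%.

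Other genes of the pathway were taken from a list of 8, of which 7 had a kept probe. The exception was PIF4 (GRMZM5G865967). In each line 1 of the 7 rose and 6 fell, where 47.4% and 30.2% of all genes did in TC243, 40.6% and 32.3% in cytTC221, and 54.8% and 26.1% in cytTC248. The largest fall was that of PIF5 (GRMZM2G165042), a further PIF gene by its RefSeq name, with control means of 2.02 ± 0.07 (SD, n = 4) in TC243, 1.46 ± 0.22 in cytTC221 and 1.74 ± 0.08 in cytTC248 and heat means of -2.39 ± 0.13, -2.41 ± 0.09 and -2.48 ± 0.14. In control cytTC221 was below TC243 by -0.56 (adjusted p = 1.14e-04), and in heat the 2 lines differed by -0.02 (adjusted p = 0.898). The FR of PIF5 was -21.2, -14.6 and -18.6 (adjusted p = 6.28e-22, 8.03e-21 and 1.6e-21), and its response was smaller in cytTC221 than in TC243 by 0.54 (adjusted p = 0.00203).

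The DELLA genes d8 and d9 encode repressors of gibberellin responses, which in Arabidopsis also bind PIFs. d8 (GRMZM2G144744) was down-regulated, with FR values of -10.0 (TC243), -7.61 (cytTC221) and -8.60 (cytTC248), and its 2 probes fell by -1.86 and -4.79 on the log2 scale in TC243. The probe at -1.86, T01, was well above background on 1 heat array of TC243 and on 0 of cytTC248. In these 2 lines its fall is a bound, and it enters the gene value. d9 (GRMZM2G024973) changed by -0.88, -1.26 and -0.93, and since its probe was not well above background in TC243 heat, it was at least 1.84-fold lower there. The probe was well above background on 3 control arrays of TC243, 2 heat arrays of cytTC221 and 1 heat array of cytTC248. The fall in cytTC248 is thus also a bound, and that in cytTC221 rests partly on undetected values. Both genes were called in all 3 lines. phot1 (GRMZM2G001457), a blue light receptor, fell by an FR of -6.81, -6.45 and -7.45.

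Chromophore synthesis was covered by elm1 (GRMZM5G861678), the phytochromobilin synthase gene, and by a pair of heme oxygenase genes named HO1, whose enzyme makes the precursor of the chromophore. elm1 fell by 0.79, 0.73 and 0.54, and all 7 of its probes were lower in heat, with the T02 probe not called in cytTC248 (-0.12, adjusted p = 0.305). Its T02, T03, T05 and T07 probes were well above background on 14, 13, 12 and 12 arrays, which include every control array. On most or all heat arrays they were not, so their falls are bounds, and they enter the mean. The T01, T04 and T06 probes were well above background on every array and were called in all 3 lines. The HO1 gene GRMZM2G101004 was up-regulated, with FR values of 17.0 (TC243), 11.6 (cytTC221) and 15.0 (cytTC248). Its probes both rose, but unequally, by 6.75 and 1.42 in TC243. The HO1 gene GRMZM2G043277 fell by 0.64, 1.12 and 0.71 as a mean, with its T01 probe higher (0.84, 0.44 and 0.99) and its T02 probe lower (-2.12, -2.69 and -2.42). T01 carried the label Sp and T02 the label Xhy. In elm1, phot1, d8 and the HO1 gene GRMZM2G101004, probes of both labels moved in the same direction. This T01 probe was well above background on 0, 2 and 0 control arrays and on 4, 2 and 4 heat arrays of the 3 lines. Its rises in TC243 and cytTC248 are therefore only bounds, and they enter the mean.

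**Figure D5:**
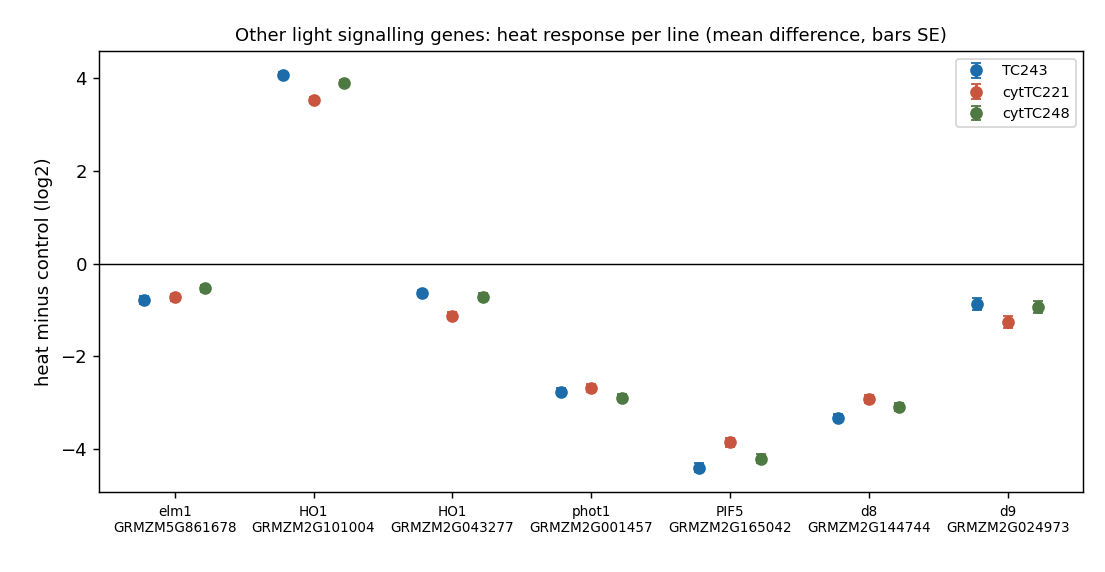
Heat minus control difference on the log2 scale for the 7 other light signalling genes with a kept probe, in each line, with bars of 1 standard error from the limma fit of 4 arrays per group. The HO1 gene GRMZM2G101004 lies at 3.53 to 4.09 and the other 6 genes lie below 0, with PIF5 lowest at -3.86 to -4.41.

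Over the 24 arrays, which share their treatment contrast and their scaling, the members split by direction. Pearson's r was 0.96 between phyC1 and phyC2, 0.887 between phyA1 and phyA2, 0.461 between phyB1 and phyB2 and -0.972 between phyA2 and GRMZM2G115960. After the group means were taken out, r between members lay from -0.367 to 0.436, so little of this likeness was seen among replicates. Among 1962 genes with a RefSeq name, those most similar to each member over the 24 arrays were the small heat shock protein gene GRMZM2G158232 and ALF19 for phyA1 (r = 0.931 and 0.93), arpp3 and Ann7 for phyA2 (0.99 and 0.986), Cullin-4 and HDA108 for phyB1 (0.88 and 0.766), and sbp25 and rel2 for phyB2 (0.989 and 0.988). For phyC1 they were CST1 and ARF10 (0.979 and 0.978), for phyC2 CPK21 and pma1 (both 0.993), for GRMZM2G387528 lox1 and ial1 (0.979 and 0.977), and for GRMZM2G115960 CP24 and RA (both 0.997). phyB1 had the weakest best match of the 8 members. All phyB1 correlations used the mean of its probes, which holds the stray T01 spots of cytTC221 control and cytTC248 heat.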

How the data were processed

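One-colour Agilent arrays of 3 maize lines, control and heat, 4 per group, were used. The authors scanned them with Feature Extraction (version 11.5.1.1 in the file headers, 11 in the submitters' processing notes) and deposited median signal and background intensity per spot, with flags, not normalized between arrays. The deposited series table gives log2 values. Set against the scanner files, these were the log2 of the median signal without background subtraction, quantile-normalized separately for each line, with column medians of 6.5 to 6.52. They served as an alternative for the heat responses within a line and for the differences between these responses. Levels were not compared between lines with them. The response differences from these values compare lines that were normalized separately. The gene IDs of the array are those of version 3 of the maize annotation, according to the methods.

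The median intensity was background-corrected (normexp, offset 50, which shrinks differences of dim spots), put on log2 and reduced by each array's 75th percentile over the 46955 spots that every array had well above background. Spots flagged as outliers (0 to 45 an array) were left out, spots of a probe were averaged, and a probe was kept where some group had it well above background on each of its arrays (64522 of 133671). The gene value is the mean of its kept probes (48263 genes). limma 3.58.1 (R 4.3.3) fitted all 6 groups in 1 model, with Benjamini-Hochberg adjustment over all genes for each contrast and the threshold of 0.01 of the study's methods. Differences of the heat response were tested as interaction contrasts. The fit was tested on simulated data. The number of arrays limits the precision.

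The named genes were all 8 members, the pathway genes called in all 3 lines or defining a group, and for each member the 2 genes of highest correlation. HY5 and COP1 were not matched by name and were not analysed here. The members and lists were chosen with earlier results of these data known. Members were not selected by measured values.

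The arrays lay on 6 slides of 4, each line having 2 slides with both control and heat, and within a line control and heat arrays lay at different positions of the slide. Heat arrays were at positions 2 and 4 in TC243 and cytTC221 and at 1 and 3 in cytTC248, and controls the reverse. The heat changes of the 7 members called in all 3 lines had the same sign in both arrangements, while in comparisons of cytTC248 with the other lines the line and the position cannot be told apart. Deviations of arrays from different groups had a median correlation of 0.024 on the same slide (36 pairs) and -0.001 on different slides (204 pairs). Replicate numbers did not pair the arrays, since same-numbered arrays correlated between -0.116 and 0.01. Alternatives changed the scaling, signal, filter, probe summary, slide or replicate block, or left out 1 array at a time.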

Additional observations from a re-analysis of the deposited data

Results flagged for a closer look

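Within groups of 4 arrays, a lone value was judged by its gap to the nearest other array divided by the range of the group. Chance marks about 1 in 20 groups, and 6 of 84 were marked. The phyB1 mean stood out in cytTC221 control (0.864) and cytTC248 heat (0.915), and its T01 probe in the same groups (0.915 and 0.931), in replicate 2 and replicate 4. phyA1 stood out in TC243 heat (0.849), where replicate 1 was lowest. The T03 probe of GRMZM2G115960 stood out in TC243 control (0.934), within a range of under 0.1 on the log2 scale.

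Heat responses that differed between lines by the interaction test were those of phyC1 (0.49, cytTC221 minus TC243) and GRMZM2G115960 (-0.33). At probe level they were phyB1 T02 (-0.57 against TC243, -0.48 against cytTC248) and phyB1 T03 (-0.43 and -0.49). The T01 probe of GRMZM2G115960, which enters the mean of that gene, was not well above background in cytTC221 heat and has only a bound there.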

How the results depend on the processing

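The alternatives ran to 35 settings for the heat responses, and none reversed a direction among the members. Of the values of single members and probes that were followed through the settings, 1764 kept their side of the threshold, 86 lost a call and 20 gained one. The response differences of phyA2 and phyC2, called in some settings, were not among these. The differences of phyA2 between lines kept their calls in all 34 settings that could be run. From the scanner software's processed signal the change of phyC2 in TC243 grew to -2.80 and that of GRMZM2G387528 to -1.89. The brightest probe gave -3.25 for GRMZM2G115960 in TC243 and the unfiltered probes gave 0.65 for phyA1 there. phyB1 was called without cytTC221 control replicate 2 in cytTC221 (-0.64, adjusted p = 1.72e-06) and cytTC248 (-0.37, adjusted p = 4.98e-04), and with median-centred arrays in TC243 (-0.53, adjusted p = 0.00655) and cytTC248 (-0.79, adjusted p = 2.05e-04).

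Counts of members called moved as follows, and the cause was not tested. With arrays centred on the median gene, 1 member rose in cytTC248, 2 differed in response between cytTC221 and cytTC248, and the F-test called 3, phyA2, phyC1 and phyC2. That response comparison called 1 member under quantile normalization, the 75th percentile over all spots, the processed signal, the deposited values, the strict background filter, the brightest probe and the median probe. The F-test called 2, phyA2 and phyC1, when the percentile was that of all spots. It called 0 with quantile normalization, the deposited values, no filter, the strict filter, the slide block and the replicate block. With the brightest probe or the median probe it called phyB1 in place of GRMZM2G115960. The response of cytTC221 against TC243 gave 0 with no filter or the slide block and 1 with the strict filter, and that of cytTC248 against TC243 gave 1 with the processed signal. In heat, cytTC248 and TC243 differed in 1 member with quantile normalization, the percentile over all spots and the processed signal, and cytTC221 and cytTC248 in 1 with the first 2 of these and the strict filter. Leaving out 1 array gave 0 to 2 members for the response of cytTC221 against TC243, 0 to 2 against cytTC248 and 0 to 2 in the F-test, 2 to 4 for cytTC221 against TC243 in heat, and 5 to 6 falling in cytTC221 and in cytTC248.

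The replicate block, with numbers that did not pair the arrays, took the F-test from 1 member to 0 and the phyB1 difference in heat to an adjusted p of 0.0117, and ended no other call of the members. Without cytTC221 heat replicate 2 or TC243 heat replicate 4, the phyC1 difference in heat was 0.33 (adjusted p = 0.0111) and 0.34 (adjusted p = 0.0106). Spots near background, such as the T01 probe of GRMZM2G115960, limit what small changes can be read.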
